A study of Mus musculus with 6 samples.

Results

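The genes described here are transcription factors known from cerebellar granule neurons: the zinc finger genes Zic1, Zic2 and Zic4, the homeobox genes En2, Pax6 and Barhl2, the basic helix-loop-helix gene Neurod2 and the ETS gene Etv1. They were chosen as a list of named genes, with earlier results of these data known. Of the 9 genes named, 8 were followed in every table and 1 is not analysed here, against 19006 mouse genes in the SCRB-seq table, 21987 in the bulk SMART-Seq2 table, 23295 in the plate table and 19905 in the droplet table.

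The study isolated nuclei from formalin-fixed, paraffin-embedded (FFPE) brain of C57BL/6J mice aged 8 to 12 weeks, cut as 50 µm scrolls and labelled cortex. For the bulk material paraffin was dissolved in 3 ways: with heated mineral oil, with heated xylene, or with xylene kept at room temperature. SCRB-seq (3′ counting of pooled, barcoded wells) covered 16 wells of each method and 16 wells of frozen nuclei, 8 of them with 10 and 8 with 100 nuclei, and SMART-Seq2 (full-length cDNA) covered 3 wells of each group with 10, 50 and 100 nuclei. Single nuclei were sorted into plates for SMART-Seq2 (FFPE and frozen) or run in droplets (FFPE, 1 sample). The authors' annotation places the FFPE plate nuclei in hemisphere L and the frozen ones in hemisphere R, so fixation and hemisphere cannot be told apart there. The labels give no animal for a well or nucleus, and each bulk chemistry is 1 sample, so p-values over wells measure the spread between wells, which may be technical. No transgene or drug treatment is named for any group.

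Granule neurons are the small glutamatergic neurons of the cerebellar cortex. Their precursors arise at the rhombic lip, divide in the external granule layer and then migrate inwards while they mature. Zic1, Zic2 and Zic4 act from the precursors onwards, En2 patterns the cerebellar territory, Pax6 and Barhl2 act in the rhombic lip lineage, Neurod2 drives differentiation, and Etv1 switches on genes of the mature neuron. None of these genes is restricted to the cerebellum: Neurod2 is also a factor of cortical excitatory neurons, Etv1 marks a class of deep-layer cortical projection neurons, and Zic and Pax6 genes are expressed in parts of the forebrain.

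In the GENCODE M21 annotation of build GRCm38 all 8 are protein-coding. On chromosome 9, Zic1 occupies 91358058 to 91365810 on the minus strand and Zic4 occupies 91362413 to 91389348 on the plus strand. Their gene bodies overlap by 3398 bases and their exons by 60 bases, which is 1.05% of the exonic length of Zic1, and Zic4 shares 468 exonic bases with the opposite-strand model Gm37477. SMART-Seq2 does not mark strand, so reads from these shared bases cannot be told apart. Zic2 lies on chromosome 14 at 122475435 to 122479852, En2 on chromosome 5 at 28165694 to 28172166, Pax6 on chromosome 2 at 105668900 to 105697364, Barhl2 on chromosome 5 at 106452523 to 106458166, Neurod2 on chromosome 11 at 98325415 to 98329648 and Etv1 on chromosome 12 at 38779380 to 38870484. Pax6 overlaps the antisense gene Pax6os1 by 1431 bases, with 0 shared exonic bases.

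The promoters of the 4 genes whose SMART-Seq2 wells did not overlap between FFPE and frozen material are shown because E-boxes (CANNTG) are the sites bound by basic helix-loop-helix factors such as Neurod2. The sequences are RefSeq's, build GRCm38.p6, up to 250 bases before each annotated start without bases in annotated exons, read 5′ to 3′ on the gene's strand, with E-boxes in capitals.
Zic1, chr9:91365811-91366018, minus strand: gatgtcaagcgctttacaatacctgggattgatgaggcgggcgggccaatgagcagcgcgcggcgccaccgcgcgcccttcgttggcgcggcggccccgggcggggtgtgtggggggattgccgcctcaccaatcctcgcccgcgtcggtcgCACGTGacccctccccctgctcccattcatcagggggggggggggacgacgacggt
Pax6, chr2:105668646-105668895, plus strand: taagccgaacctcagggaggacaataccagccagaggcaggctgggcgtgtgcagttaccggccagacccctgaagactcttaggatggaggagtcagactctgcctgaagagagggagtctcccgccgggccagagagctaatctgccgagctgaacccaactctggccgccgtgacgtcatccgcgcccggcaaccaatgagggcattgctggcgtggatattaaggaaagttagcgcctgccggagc
Neurod2, chr11:98329649-98329895, minus strand: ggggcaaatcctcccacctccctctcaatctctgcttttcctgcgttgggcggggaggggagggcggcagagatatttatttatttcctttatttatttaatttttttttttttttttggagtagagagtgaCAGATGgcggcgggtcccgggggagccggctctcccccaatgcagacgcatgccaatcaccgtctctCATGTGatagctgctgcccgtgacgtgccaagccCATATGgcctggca
Etv1, chr12:38779832-38780081, plus strand: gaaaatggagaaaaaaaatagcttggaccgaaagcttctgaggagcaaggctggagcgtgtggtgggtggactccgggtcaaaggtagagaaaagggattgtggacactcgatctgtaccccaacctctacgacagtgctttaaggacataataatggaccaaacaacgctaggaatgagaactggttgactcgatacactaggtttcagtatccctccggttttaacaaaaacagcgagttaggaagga
The Zic1 stretch held 1 E-box and the Neurod2 stretch held 3, while those of Pax6 and Etv1 held 0. A RefSeq start of Barhl2 (chr5:106458167-106458416, minus strand) held 2. The Zic1 stretch had 71.2% G and C with 26 CpG, Barhl2 74.8% with 36, Pax6 60.8% with 15, Neurod2 53.0% with 11 and Etv1 46.4% with 9, where all 32851 starts had a median of 52.4% and 6 CpG over 250 bases. Over full windows of 250 bases, the 8 starts of these factors had a median of 50.2% and 13 CpG. CANNTG, searched on both strands, stood in 66.2% of all starts and in 6 of the 8 full windows of these factors, which are the starts of 6 genes, with more than 1 start for Pax6 and Etv1 and none in the table for Zic2 and En2. Holding a match is thus common.

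The tissue label was checked first against genes that define cell types. Gabra6 and Cbln3, defining genes of mature granule neurons, had counts in 47 of 48 FFPE wells of SCRB-seq and 0 counts in all 16 frozen wells. A list of mature granule neuron genes (13 of 14 in the table) summed to 1596 to 12494 CPM (counts of a gene per 1000000 counts of its well) in the FFPE wells and 1352 to 3464 in the frozen wells, with 2 of its genes at 0 over the frozen wells. Pooled over wells, Kcnd2 stood at 3037 CPM in FFPE and 1058 in frozen wells and Rbfox3 at 791 and 678, so these genes carried much of the sums. Slc17a7 went the other way, at 42.0 and 112. Forebrain excitatory factors, such as Tbr1 and Cux2, summed to 0 to 2211 CPM in the FFPE wells (median 506) and 1115 to 2342 in the frozen wells (median 1670). Oligodendrocyte genes summed to 0 to 5909 CPM in the FFPE wells (median 628) and 64.7 to 584 in the frozen wells (median 316), and precursor genes to 0 to 1090 (median 118) and 0 to 117 (median 0). Fixed and frozen material therefore differed in cell type markers as well as in fixation. In bulk wells, fewer nuclei of a type and less RNA per nucleus cannot be told apart.

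All 8 factors had a higher summed CPM in FFPE than in frozen SCRB-seq wells, while the median of Neurod2 was 37.5 in FFPE and 38.1 in frozen wells. Summed over wells, Zic1 had 786 counts in FFPE against 7 in frozen wells, and Neurod2 had 302 against 52. Among the 5 genes with frozen counts the ratio was lowest for Neurod2, and the intervals of Zic1, Pax6 and Zic2 overlapped. The 3 genes En2, Zic4 and Barhl2 had no count in any frozen well. Wells held 7512 to 167144 counts, 2976681 over all FFPE wells and 1065514 over all frozen wells, so most wells held only a few counts of each factor.

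Zic1 was found in 43 of 48 FFPE wells. In mineral oil wells it ranged from 0 to 870 CPM with a median of 151. Heated xylene wells ranged from 77.0 to 1043 (median 281), and room-temperature xylene wells from 43.5 to 377 (median 110). The 16 frozen wells ranged from 0 to 21.2 CPM with a median of 0. Of the 48 FFPE wells, 43 lay above the highest frozen well, and the 5 others, all mineral oil wells of 10 nuclei, had no count. No factor had every FFPE well above every frozen well in SCRB-seq, which held for 1.29% of the genes tested. Its summed level was 40.2 times those of the frozen wells (exact 95% interval 19.4 to 100.3, counting error only).

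Zic2 had counts in 28 of 48 FFPE wells and in 2 of 16 frozen wells. It ranged from 0 to 155 CPM in mineral oil, 0 to 101 in heated xylene (median 5.39) and 0 to 254 in room-temperature xylene (median 83.9), against 0 to 54.1 in frozen wells. Its 122 counts in room-temperature xylene were most of the 183 in FFPE wells. Zic4 behaved differently from its neighbour Zic1: of its 58 FFPE counts, 50 came from heated xylene, where 13 of 16 wells held it (0 to 217 CPM, median 21.97), while 1 mineral oil well and 3 room-temperature xylene wells did. Zic4 was at least 4.91-fold higher in FFPE wells when its empty frozen wells were given 3 counts in total and the lowest of the pooled, mean and leave-one-well-out FFPE levels was taken.

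Among the homeobox genes, Pax6, a regulator of granule precursors and of other neural progenitors, had counts in 32 of 48 FFPE wells and 2 of 16 frozen wells. It ranged from 0 to 324 CPM in mineral oil (median 7.53), 0 to 362 in heated xylene (median 27.0) and 0 to 561 in room-temperature xylene (median 81.0), against 0 to 33.9 in frozen wells. In wells of 10 nuclei it was found in 0 of 8 mineral oil, 1 of 8 heated xylene and 7 of 8 room-temperature xylene wells, and in wells of 100 nuclei in all 8 of each method. En2, an engrailed homeobox gene of midbrain and hindbrain patterning, ranged from 0 to 994 CPM in mineral oil, 0 to 287 in heated xylene and 0 to 88.2 in room-temperature xylene. It had counts in 27 of 48 FFPE wells and was at least 12.3-fold higher there, on the same basis. Barhl2, a homeobox gene of rhombic lip derivatives, gave 60 counts, of which 54 lay in the 8 heated xylene wells of 100 nuclei (10.8 to 319 CPM, median 47.0). The other 6 lay in 3 room-temperature xylene wells of 100 nuclei, so 4 of the 6 FFPE library pools held none.

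Neurod2 was found in most frozen wells (11 of 16). Mineral oil wells ranged from 0 to 482 CPM (median 34.2), heated xylene wells from 0 to 374 (median 10.3), room-temperature xylene wells from 0 to 152 (median 57.4) and frozen wells from 0 to 100 (median 38.1). Only 15 of 48 FFPE wells lay above the highest frozen well, and all 16 wells of 10 nuclei in mineral oil and heated xylene held no count. The ratio of summed CPM was 2.08 (1.54 to 2.85). Etv1 was found in every heated and room-temperature xylene well, at 20.6 to 939 CPM (median 130.0) and 31.2 to 391 (median 169). Mineral oil wells ranged from 0 to 994 (median 122) and frozen wells from 0 to 101 (median 4.08). The ratio of summed CPM for Etv1 was 6.79 (4.70 to 10.2).

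**Figure D1:**
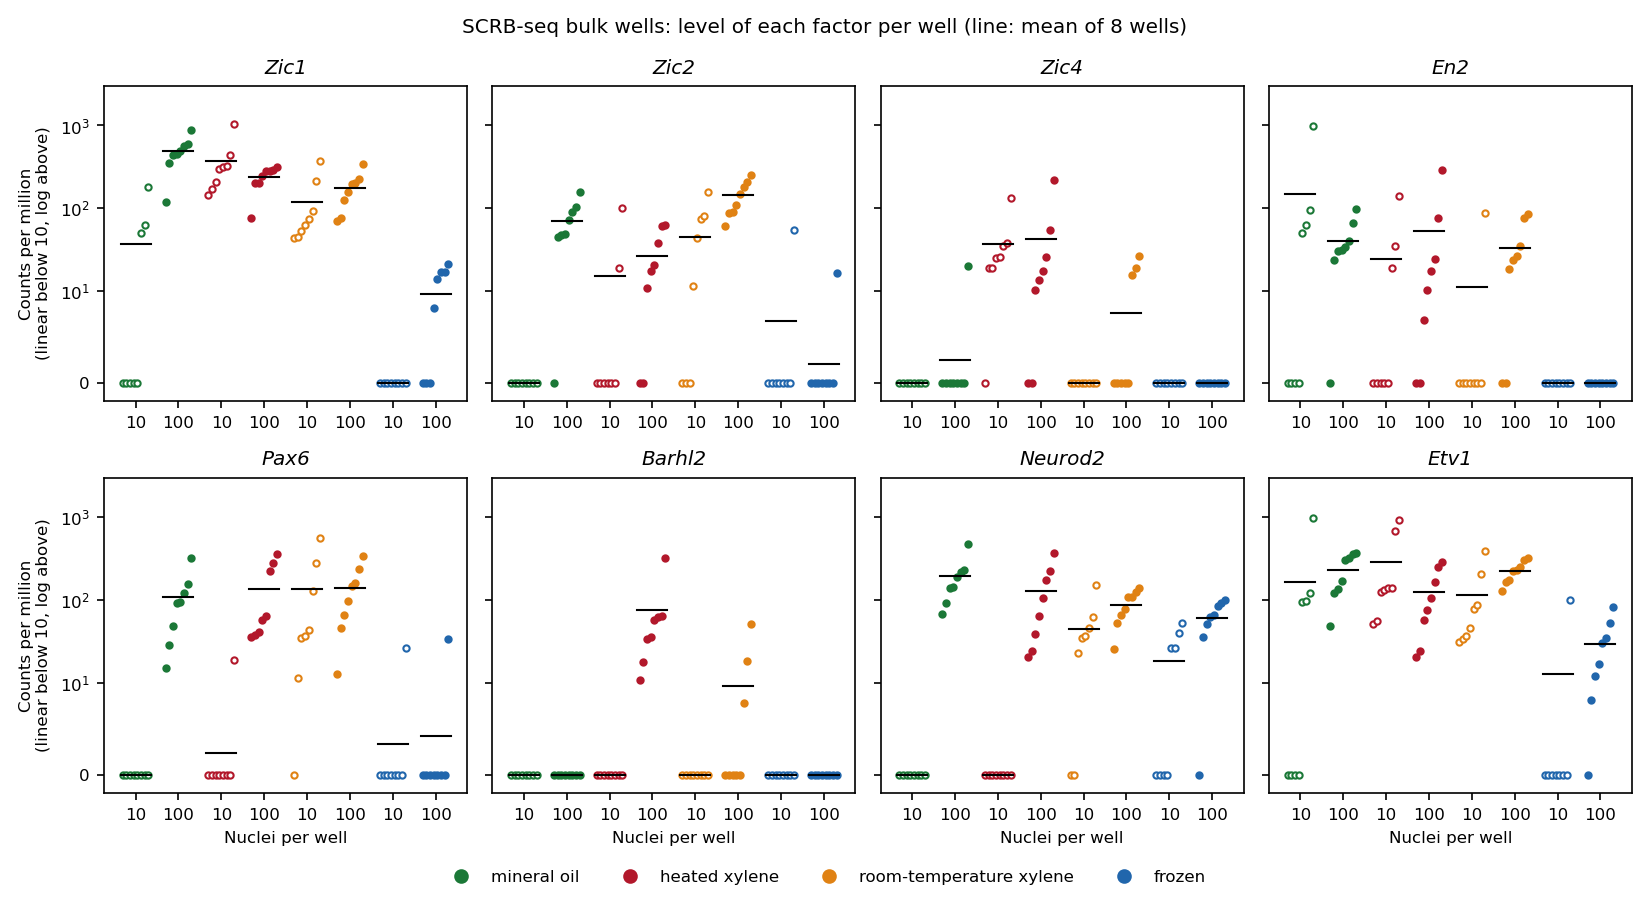
CPM of each factor in every SCRB-seq well, on an axis that is linear below 10 and logarithmic above, by method and by nuclei per well (10 or 100); lines mark the mean of 8 wells. Zic1 lies above the frozen wells in 43 of 48 FFPE wells, while Barhl2 is confined to wells of 100 nuclei in both xylene groups and Neurod2 overlaps with the frozen wells.

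The test across all genes used edgeR's quasi-likelihood fit with Benjamini-Hochberg adjustment, and its filter on low counts kept 1478 mouse genes. Zic1 and Etv1 were the 2 factors that passed this filter, and the other 6 were too low to be tested. FFPE minus frozen was 4.83 for Zic1 on the log2 scale (SE 0.52, adjusted p = 9.21e-13) and 2.77 for Etv1 (SE 0.49, adjusted p = 1.25e-06). Zic1, with 7 counts over the 16 frozen wells, passed the filter through its FFPE wells, so a higher level was the direction it could show. Both were called higher in this contrast, in which 58.0% of tested genes were called and 30.2% were called higher. Against the same frozen wells, Zic1 was higher by 5.07 after mineral oil, 5.23 after heated xylene and 4.19 after xylene at room temperature, and Etv1 by 2.74, 2.95 and 2.61, all 6 with adjusted p below the threshold of 0.05. In these 3 contrasts 55.1%, 50.3% and 49.5% of the 1478 genes were called, and 378, 447 and 443 were called higher. With all genes of at least 10 counts kept (14524 genes), Zic1, Zic2, Zic4, En2, Pax6 and Etv1 were called higher, where 31.9% of genes were called and 10.7% called higher. Zic4 and En2 had 0 frozen counts, Zic2 had 2 and Pax6 had 3, so these too passed the filter through FFPE wells and the calls are a description. There Zic2 was higher by 3.48 (adjusted p = 2.06e-05), Pax6 by 4.16 (adjusted p = 1.46e-06) and Neurod2 had a difference of 0.92 (adjusted p = 0.171), while Barhl2 could not be fitted. Under this filter 5 factors were called higher after mineral oil, 7 after heated xylene and 7 after room-temperature xylene. Of all 14524 genes, 32.8%, 33.3% and 23.7% were called in these contrasts, and 1573, 2360 and 1871 were called higher.

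Each combination of method and nuclei number was pooled as 8 wells into a single library, so the wells of a pool are not separate libraries. Pairs of wells of a pool had a median correlation of 0.573 to 0.766, and wells of the 2 pools of a group 0.412 to 0.654. The frozen wells of 10 nuclei were less alike within their pool (0.584) than across the 2 frozen pools (0.654). With counts summed by pool, 2 pools per group, an alternative chosen after seeing the data, no factor was called by edgeR (0.752% of 10235 genes were). Zic1 then had a difference of 5.27 (adjusted p = 0.0587) and Etv1 of 2.86 (adjusted p = 0.111), and 6 of 7 tested factors had an unadjusted p under 0.05, as did 14.7% of all genes. Scaling by DESeq2 size factors moved the median over all genes from 0.00 to -0.58, and the called genes from 447 higher and 410 lower to 309 higher and 674 lower. Zic1 (4.36) and Etv1 (2.26) were still called higher under it.

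The 3 ways of removing paraffin were compared next. Neither tested factor was called between methods by edgeR or by DESeq2, where 8.52% of 1080 genes were called between mineral oil and heated xylene, 1.94% between the xylene groups and 10.3% between mineral oil and room-temperature xylene. Zic1 had an unadjusted p under 0.05 in both contrasts with room-temperature xylene, with heated xylene higher by 1.02 (adjusted p = 0.193) and mineral oil by 0.92 (adjusted p = 0.175), and no other unadjusted p fell under 0.05. With every gene of at least 10 counts kept, Zic4 was higher in heated xylene than in mineral oil (log2 difference of mineral oil minus heated xylene -3.38, adjusted p = 0.000495) and than in room-temperature xylene (2.72, adjusted p = 0.0015). Barhl2 was also higher in heated xylene than in mineral oil (-4.38, adjusted p = 0.000274) and than in room-temperature xylene (2.58, adjusted p = 0.00858). Zic4 had 2 counts in mineral oil, 6 in room-temperature xylene and 50 in heated xylene, and Barhl2 had 0, 6 and 54. Both passed the filter through heated xylene wells, so their calls are a description, and -4.38 is set against a group at 0 counts. Zic2 was lower in heated than in room-temperature xylene (-2.10, adjusted p = 0.0108). In these fits 26.6% and 21.1% of 13483 genes were called, and no factor was called between mineral oil and room-temperature xylene, where 22.0% of genes were. Summed by pool no factor was called between methods, with 0 of 7 at an unadjusted p under 0.05. The Barhl2 counts come almost wholly from 1 pool. In SMART-Seq2 wells Zic4 and Barhl2 were ordered otherwise: the summed level of Zic4 was 15.3 CPM in heated xylene, 19.1 in mineral oil and 89.7 in room-temperature xylene, and that of Barhl2 was 2.89, 8.94 and 4.52 in the same order. Single wells carry these sums: 1 heated xylene well held 35 of its 37 Zic4 counts, with 0 and 2.55 CPM in the other wells, and 1 held all 7 of its Barhl2 counts. The counting intervals of Barhl2 overlapped between the 3 methods.

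Zic1 in mineral oil differed by nuclei number. Mineral oil wells of 10 nuclei gave 5 counts in 3 of 8 wells (0 to 183 CPM), and mineral oil wells of 100 nuclei gave 272 counts in all 8 (120 to 870 CPM, median 476). Heated xylene wells had 144 to 1043 CPM with 10 nuclei (median 309) and 77.0 to 314 with 100 (median 264). Room-temperature xylene wells had 43.5 to 377 with 10 (median 67.7) and 70.1 to 345 with 100 (median 178). The oil wells of 10 nuclei were also the shallowest, at 7512 to 20593 counts. In wells of 100 nuclei alone, mineral oil was higher than heated xylene by 1.02 (adjusted p = 0.0439) and than room-temperature xylene by 1.54 (adjusted p = 0.00359), with 13.1% and 9.11% of genes called. There 4 factors were called higher in mineral oil than in frozen wells, with 43.2% of 2440 genes called and 597 called higher. Nuclei number and library pool cannot be told apart here.

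In SMART-Seq2 wells, with 270363 to 942966 counts each, Zic1 was again higher in FFPE than in frozen material. Zic1 had 42.4, 119 and 127 CPM in heated xylene wells of 10, 50 and 100 nuclei. Room-temperature xylene wells had 104, 245 and 241 CPM, and mineral oil wells 113, 156 and 168, in the same order. All 3 frozen wells had 0 counts, so the groups did not overlap and the summed level was at least 68.2-fold higher in FFPE wells with bounds built as for SCRB-seq (edgeR adjusted p = 0.000376). Summed levels of Zic1 were 199 CPM in room-temperature xylene, 148 in mineral oil and 91.3 in heated xylene, against 164, 405 and 282 in SCRB-seq. The SCRB-seq order of mineral oil and heated xylene rests on the oil wells of 100 nuclei (272 of 277 counts) and was the reverse by the median of all wells (151 and 281).

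Pax6 was also at 0 in the 3 frozen wells. It had 234, 16.6 and 89.3 CPM in heated xylene wells of 10, 50 and 100 nuclei, 73.1, 75.9 and 32.6 in room-temperature xylene and 33.2, 16.6 and 117 in mineral oil. Its summed level was at least 32.4-fold higher in FFPE wells (edgeR adjusted p = 0.0136). This call was lost without any 1 of the frozen wells (adjusted p = 0.0608 to 0.108).

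Etv1 was present in every well. Frozen wells of 10, 50 and 100 nuclei had 141, 44.4 and 62.1 CPM. Heated xylene wells had 281, 334 and 520.0, room-temperature xylene wells 1173, 508 and 192, and mineral oil wells 540.4, 480.2 and 542. All 9 FFPE wells lay above the highest frozen well, and the difference was 2.30 (SE 0.59, adjusted p = 0.0237). The call was lost without the frozen well of 100 nuclei (adjusted p = 0.123) or of 50 (adjusted p = 0.147).

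Neurod2 had 12.3, 7.40 and 4.29 CPM in frozen wells of 10, 50 and 100 nuclei. Its FFPE wells had 78.0, 78.1 and 163 CPM in mineral oil, 99.5, 115 and 38.7 in room-temperature xylene and 23.3, 29.3 and 66.3 in heated xylene, all above the frozen wells. The difference of 2.81 (SE 1.09) missed the edgeR threshold (adjusted p = 0.184) and passed that of DESeq2 (adjusted p = 0.0125). Zic4 had 0 to 152 CPM over the 9 FFPE wells and 0, 7.40 and 0 in frozen wells, a difference of 3.64 (SE 1.88, adjusted p = 0.381). Zic2 (1.28 to 22.4 CPM in FFPE, 0 to 3.70 in frozen wells), En2 (0 to 108 against 0) and Barhl2 (0 to 16.6 against 0) were too low to be tested.

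Of the 5 factors tested, 3 were called higher, in a contrast where 4.09% of 9092 genes were called and 1.45% called higher. Every FFPE well lay above every frozen well for Zic1, Pax6, Neurod2 and Etv1, which held for 3.72% of the tested genes. Both tests saw only genes that passed the low-count filter, and a gene near 0 in frozen wells could pass only through its FFPE wells. Per kilobase of exon the FFPE wells averaged 38.2 ± 21.1 CPM for Etv1, 25.7 ± 11.5 for Zic1, 24.4 ± 14.2 for Neurod2, 6.54 ± 5.87 for Pax6, 4.57 ± 9.81 for En2, 4.56 ± 2.54 for Zic2, 4.003 ± 4.826 for Zic4 and 2.38 ± 2.60 for Barhl2 (SD, n = 9 wells). Neighbours in this order overlapped within their spread, and the highest wells of Pax6 and En2 lay within the range of each of the first 3, so the order is not resolved.

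Between methods no factor was called by edgeR or DESeq2 in SMART-Seq2, with 0 of 6 tested factors at an unadjusted p under 0.05 in each of the 3 contrasts and 0 of 8372 genes called by edgeR (16, 1 and 20 by DESeq2). Against frozen wells, 2.52% of genes were called for mineral oil, 1.00% for heated xylene and 1.53% for room-temperature xylene. Zic1 and Pax6 were called higher in all 3 of these, and Etv1 in room-temperature xylene (2.61, adjusted p = 0.0418). These contrasts share the frozen wells.

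**Figure D2:**
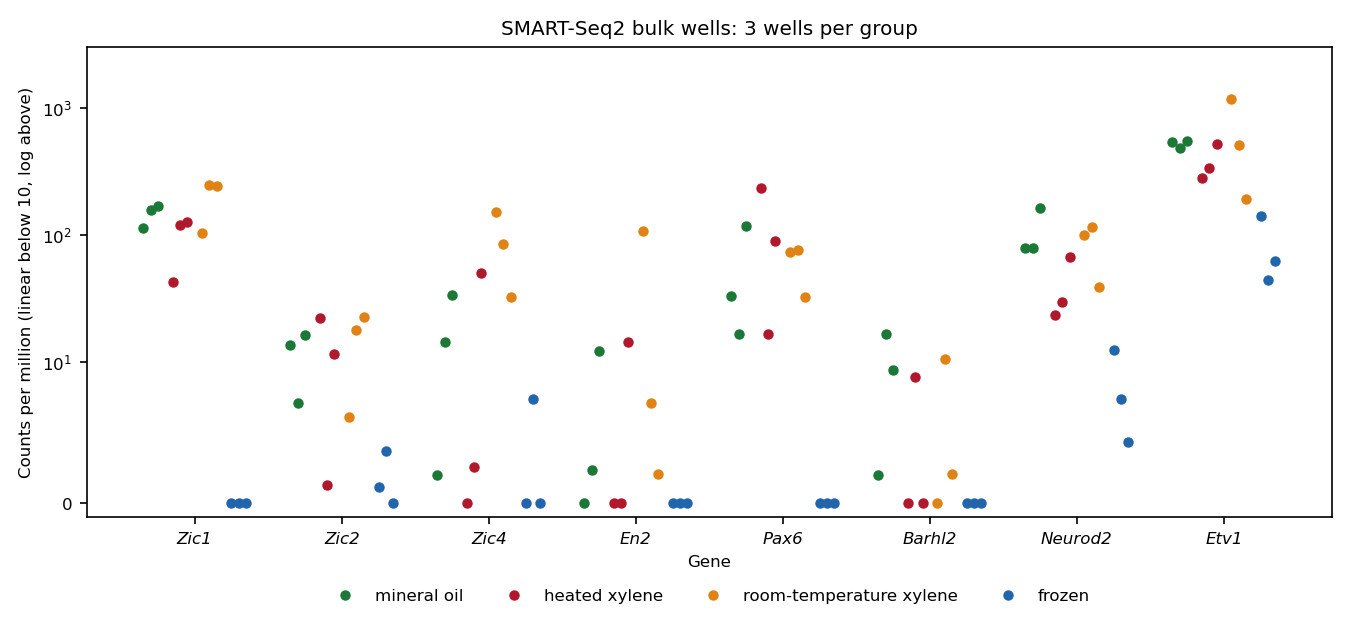
CPM of each factor in the 12 SMART-Seq2 bulk wells, on an axis that is linear below 10 and logarithmic above, with 3 wells (10, 50 and 100 nuclei) per group. All 9 FFPE wells lie above the 3 frozen wells for Zic1, Pax6, Neurod2 and Etv1.

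Other genes of the lineage were examined next. Of 14 further lineage factors, 4 were tested in SCRB-seq and 7 in SMART-Seq2, and in each assay 2 were called higher in FFPE wells: Meis1, a TALE homeobox gene (2.69 and 5.08 on the log2 scale), and Nfia, a nuclear factor I gene of granule neuron maturation (1.64 and 2.02). Among all tested genes 30.2% were called higher and 27.7% lower in SCRB-seq, and 1.45% higher and 2.64% lower in SMART-Seq2. Barhl1 had 25 counts in 6 of 48 FFPE wells and 0 in frozen wells of SCRB-seq. Of the mature granule neuron genes 10 of 12 tested were called higher in SCRB-seq (median difference 3.86, against 0.00 over all tested genes) and 8 of 13 in SMART-Seq2 (4.21 against -0.13). These counts and medians are a description, since several of the genes passed the filter through FFPE wells: over the frozen SCRB-seq wells Gabra6 and Cbln3 had 0 counts, Cbln1 had 1, and Calb2 and Fat2 had 2 each. Among them Cbln1, a synaptic organiser secreted by granule neurons, was higher by 6.50 in SCRB-seq (adjusted p = 2.6e-14) and had 0 counts in frozen wells of SMART-Seq2. Fat2, a protocadherin of granule neurons, was higher by 9.11 in SMART-Seq2 (adjusted p = 4.92e-06).

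Forebrain excitatory factors went the other way, with 2 of 3 tested called lower in SCRB-seq (median -1.17) and 2 of 6 in SMART-Seq2 (median -2.12). Mef2c, a MADS-box factor of cortical neurons, was lower by -2.81 and -1.88 in these assays, and Cux2, a factor of upper-layer cortical neurons, by -3.85 in SMART-Seq2. Gad1, the GABA-synthesising enzyme, was the 1 tested inhibitory gene in SCRB-seq and was higher by 2.53 (adjusted p = 6.18e-09). By method Gad1 was higher than in frozen wells by 3.39 after heated xylene and 3.66 after room-temperature xylene, while mineral oil had a difference of 0.56 (adjusted p = 0.288). Of the oligodendrocyte genes 0 of 1 tested were called in SCRB-seq and 1 of 5 in SMART-Seq2, the myelin gene Mal (4.66, adjusted p = 0.0336), where the list summed to 727 CPM in FFPE and 112 in frozen wells. By method the gene tested in SCRB-seq, Mbp, was higher than in frozen wells after heated xylene (1.22, edgeR adjusted p = 0.00653) and room-temperature xylene (1.19, adjusted p = 0.00855). After mineral oil Mbp was not called. The SCRB-seq values of these lists rest on wells that share library pools. The part of cell composition in the differences of the 8 factors was not tested.

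Plate nuclei were examined for whether the factors sit in the same nuclei as granule genes. Many wells of the plate tables carry near-identical profiles: 89 of 143 FFPE wells, 105 of 137 frozen wells and 16 of 98 batch 1 wells had a partner of the same material with a correlation of at least 0.8 over all genes, where the median over all pairs was 0.235, 0.312 and 0.195. Counting each group of like wells once, by its deepest well, leaves 95 FFPE, 67 frozen and 90 batch 1 profiles. Some wells, many of them among these like wells, were very rich: 28 frozen and 3 FFPE wells held over 8000 genes, up to 15973, and 21 of those 28 frozen wells held both GABAergic genes (Gad1 or Gad2) and forebrain excitatory genes (Tbr1, Neurod6 or Emx1) at 5 counts or more, against 7 of the other 109. No source used here says whether each such well held a single nucleus. Values are therefore given with and without these wells, and both choices were made after seeing the data. Median depth was 47887 counts in FFPE, 180584 in batch 1 and 255329 in frozen wells.

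Zic1 was in 43 of 143 FFPE wells, or 30.1% (exact 95% interval 22.7 to 38.3), and in 17 of 137 frozen wells, or 12.4% (7.40 to 19.1), though the frozen wells were deeper. Thinned to 10000 counts, the shares were 16.3% and 0.787%. With like wells counted once Zic1 was in 29 of 95 and 6 of 67, and with wells of over 8000 genes left out in 40 of 140 and 6 of 109. Batch 1, a separate FFPE library set, had it in 21 of 98 wells. Summed over wells Zic1 stood at 19.6 CPM in FFPE, 63.0 in batch 1 and 0.787 in frozen wells, but 1 FFPE well held 259 of the 462 FFPE counts. That well had over 8000 genes, and with such wells left out Zic1 stood at 10.6 CPM in FFPE and 0.351 in frozen wells. The 9 FFPE wells outside batch 2 were far deeper than the rest, with a median of 604700 counts against 42747.

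Etv1 was in 71 of 143 FFPE, 42 of 98 batch 1 and 46 of 137 frozen wells. Pax6 was in 38, 15 and 21 of the same wells, and En2 in 11, 2 and 2. With like wells counted once, FFPE against frozen became 50 of 95 against 16 of 67 for Etv1, 25 against 8 for Pax6 and 8 against 2 for En2. With wells of over 8000 genes left out it was 68 of 140 against 21 of 109 for Etv1, 35 against 5 for Pax6 and 9 against 1 for En2. Summed levels of Etv1 were 100.6 CPM in FFPE and 56.4 in frozen wells, but 77.3 and 72.8 with wells of over 8000 genes left out, and 1 frozen well held 1411 of the 3583 frozen Etv1 counts. These 3 genes and Zic1 thus had a higher share of whole-series FFPE wells than of frozen wells on all 3 counts. In batch 1, also FFPE, the shares of Zic1 and Etv1 lay above those of all frozen wells. Pax6 there (15 of 98) was level with frozen wells (21 of 137), and En2 was in only 2 wells of each.

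Zic2 and Zic4 did not separate the materials in the same way. Zic2 was in 26 of 143 FFPE and 24 of 137 frozen wells, and Zic4 in 14 and 15. Wells of over 8000 genes held 97.0% of the frozen Zic4 counts and 85.9% of the frozen Pax6 counts. With those wells left out, Zic4 was in 12 of 140 FFPE and 3 of 109 frozen wells and Zic2 in 24 and 11. A pair of FFPE wells, one of them with 442 counts, held most of the 1085 Zic4 counts, and in batch 1 Zic4 was in 2 of 98 wells with 1 count each. Barhl2 was rare everywhere, in 5 FFPE, 2 batch 1 and 1 frozen wells, and in 3 FFPE and 1 frozen wells with those of over 8000 genes left out.

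Neurod2 had the higher share in frozen wells: it was in 30 of 143 FFPE wells (21.0%, interval 14.6 to 28.6) and in 62 of 137 frozen wells (45.3%, 36.7 to 54.0). With like wells counted once the shares were 23 of 95 and 26 of 67, and thinned to 10000 counts 10.4% and 13.4%. With wells of over 8000 genes left out it was in 28 of 140 and 35 of 109. Its summed level went the other way, at 34.0 CPM in FFPE and 24.4 in frozen wells. Of 10 frozen profiles with at least 5 Neurod2 counts, 6 also held those forebrain excitatory genes at 5 counts, as did 12 of all 67 frozen profiles, and 0 held granule genes. Of 9 such FFPE profiles, 6 held granule genes, near the 57 of all 95 FFPE profiles, and 0 held forebrain excitatory genes, as did 0 of all 95.

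Granule genes were then counted in the wells that held each factor. Of 12 FFPE profiles with at least 5 Zic1 counts, all 12 held Gabra6, Cbln1 or Cbln3 at 5 counts or more, as did 57 of all 95 FFPE profiles. In batch 1 it was 8 of 12, against 29 of 90, and among all 67 frozen profiles 1 held such a gene. For Etv1 the numbers were 22 of 25 in FFPE, 21 of 33 in batch 1 and 0 of 9 in frozen profiles, where 5 of the 9 held forebrain excitatory genes. Pax6 profiles held granule genes in 11 of 14 FFPE and 4 of 8 batch 1 cases. FFPE profiles with 5 Zic1 counts were also deeper, at a median of 89035.5 counts against 55398 over all, and the part of depth in these numbers was not tested.

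**Figure D3:**
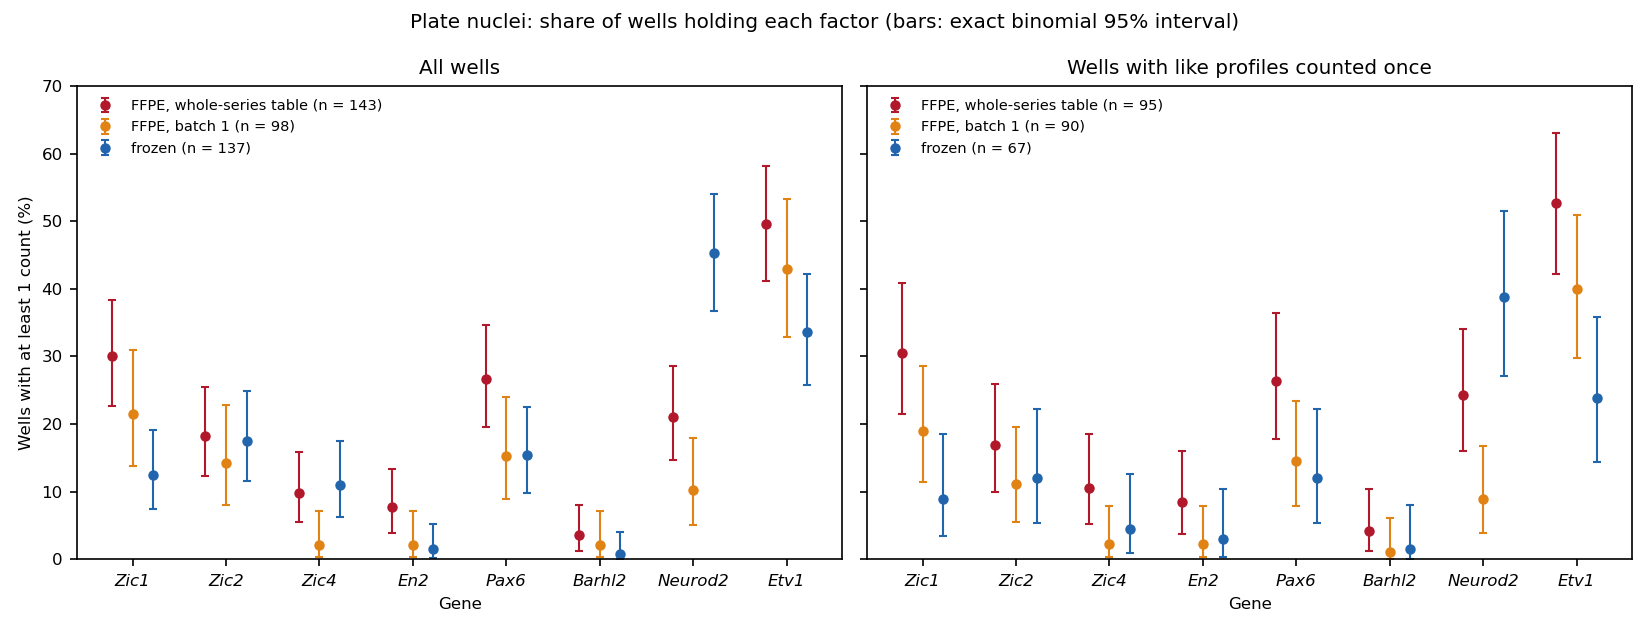
Share of plate wells with at least 1 count of each factor, in percent with exact binomial 95% intervals, for FFPE wells of the whole-series table, FFPE batch 1 and frozen wells, with all wells and with like profiles counted once. Zic1 (30.1% against 12.4%) lies higher in FFPE wells. Etv1 has the higher share there too, though its intervals overlap with all wells counted. Neurod2 lies higher in the deeper frozen wells (45.3% against 21.0%, but 13.4% against 10.4% when thinned to 10000 counts), and Zic2 and Zic4 overlap.

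The number of factors per well was counted next. Of 143 FFPE wells, 32 held none of the 8, 48 held 1, 29 held 2 and 34 held more. In batch 1, 41 of 98 held none and in frozen wells 55 of 137. The 1 FFPE well with all 8 was the well of 15973 genes.

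**Figure D4:**
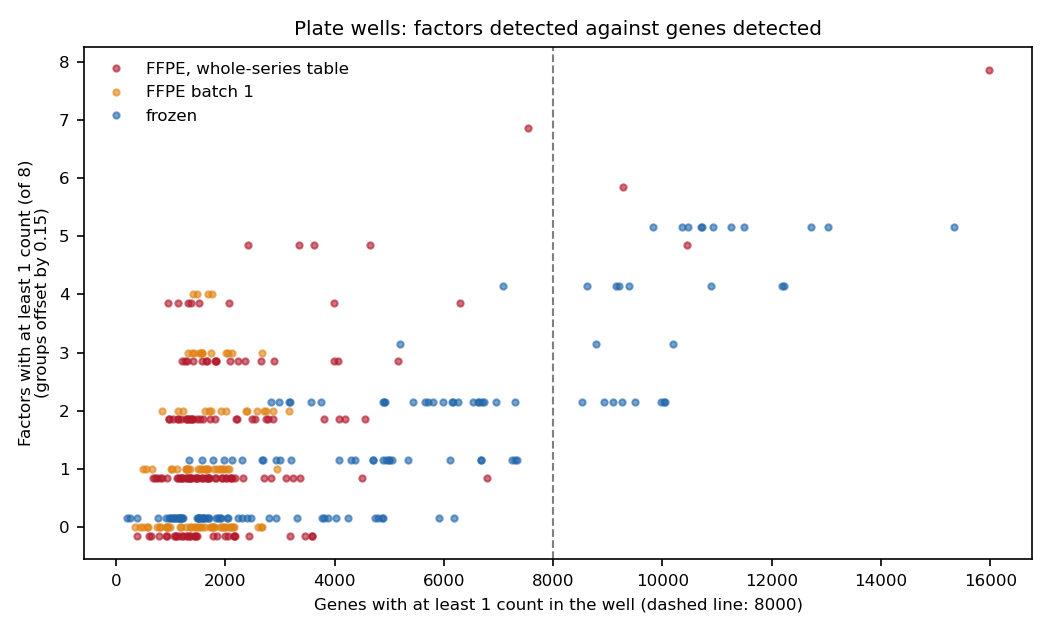
Number of the 8 factors with at least 1 count in each plate well against the number of genes in the well, for FFPE, FFPE batch 1 and frozen wells; the dashed line marks 8000 genes. The 28 frozen wells beyond the line hold a median of 4 factors and the other frozen wells a median of 0.

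Droplet nuclei were compared across the 12 classes of the authors' annotation, used as given, with no doublet caller run. These 7031 nuclei had 235 to 998 UMIs (unique molecular identifiers, 1 per captured transcript) each, so most nuclei held no count of any factor. The classes were formed from all genes of the same nuclei and come from 1 sample, so the differences are a description without a test. The largest levels lay in the class named ExNeuron3 (1105 nuclei): Etv1 had 590.1 UMIs per 1000000 UMIs there (exact Poisson interval 516 to 672) against 258 over all other nuclei (237 to 280.2), and Zic1 had 321 (267 to 382) against 164 (147 to 182).

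On the same scale Pax6 had 123 in ExNeuron3 (90.8 to 163) against 60.0 (50.3 to 71.1), and En2 had 64.1 (41.5 to 94.7) against 28.9 (22.2 to 36.9). These 4 genes did not overlap in their intervals. Zic2 (30.8 against 21.2), Zic4 (25.7 against 17.6), Barhl2 (23.1 against 16.7) and Neurod2 (61.6 against 50.1) did, with 59, 49, 46 and 135 UMIs in all. For Neurod2 the lowest neuron class was ExNeuron4 at 26.5.

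Free RNA can give UMIs in nuclei that do not express a gene, so the shares were set beside oligodendrocytes. Zic1 was in 117 of 1105 ExNeuron3 nuclei (10.6%, exact 95% interval 8.84 to 12.6) and in 13 of 298 oligodendrocytes (4.36%, 2.34 to 7.34), at median depths of 321 and 314 UMIs. Etv1 was in 209 of 1105 (18.9%, 16.6 to 21.4) and 24 of 298 (8.05%, 5.23 to 11.7). Zic1 shares of the other classes ran from 4.23% in ExNeuron5 to 7.53% in astrocytes, overlapping with that of oligodendrocytes. The level of free RNA itself was not measured. Thinned to 250 UMIs, Zic1 was in 7.92% of ExNeuron3 nuclei and 3.44% of oligodendrocytes, with 19 and 7 shallower nuclei left out.

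The same 2 classes were highest for the factors and for mature granule neuron genes, and the other classes were ordered differently. The 8 factors summed to 1239 UMIs per 1000000 in ExNeuron3, 871 in ExNeuron2 and 454 to 724 in the other 10 classes. Mature granule neuron genes, a list whose bulk SCRB-seq sums were carried largely by Kcnd2 and Rbfox3, summed to 16046 in ExNeuron3, 12528 in ExNeuron2 and 5249 to 8922 elsewhere. The other granule lineage factors did not share this order, with 2083 in ExNeuron3 and 1718 in ExNeuron2 against 2271 in fibroblasts, 2063 in astrocytes and 2050 in endothelial nuclei. Forebrain excitatory factors were at 831 in ExNeuron3, with oligodendrocytes lowest at 799.9 and astrocytes highest at 1824. Across the 12 classes the level of Etv1 was most like those of Chn2 (Pearson r = 0.926), Galnt13 (0.904) and Plcxd3 (0.887) among 2734 genes of at least 200 UMIs. Zic1 was most like Ndst3 (0.841), Fam63b (0.803) and Srgap3 (0.79996), and Pax6 most like Zfp407 (0.961), Ago3 (0.927) and Zfpm2 (0.916). The classes share 1 library, small classes have few UMIs, and these correlations carry no test.

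**Figure D5:**
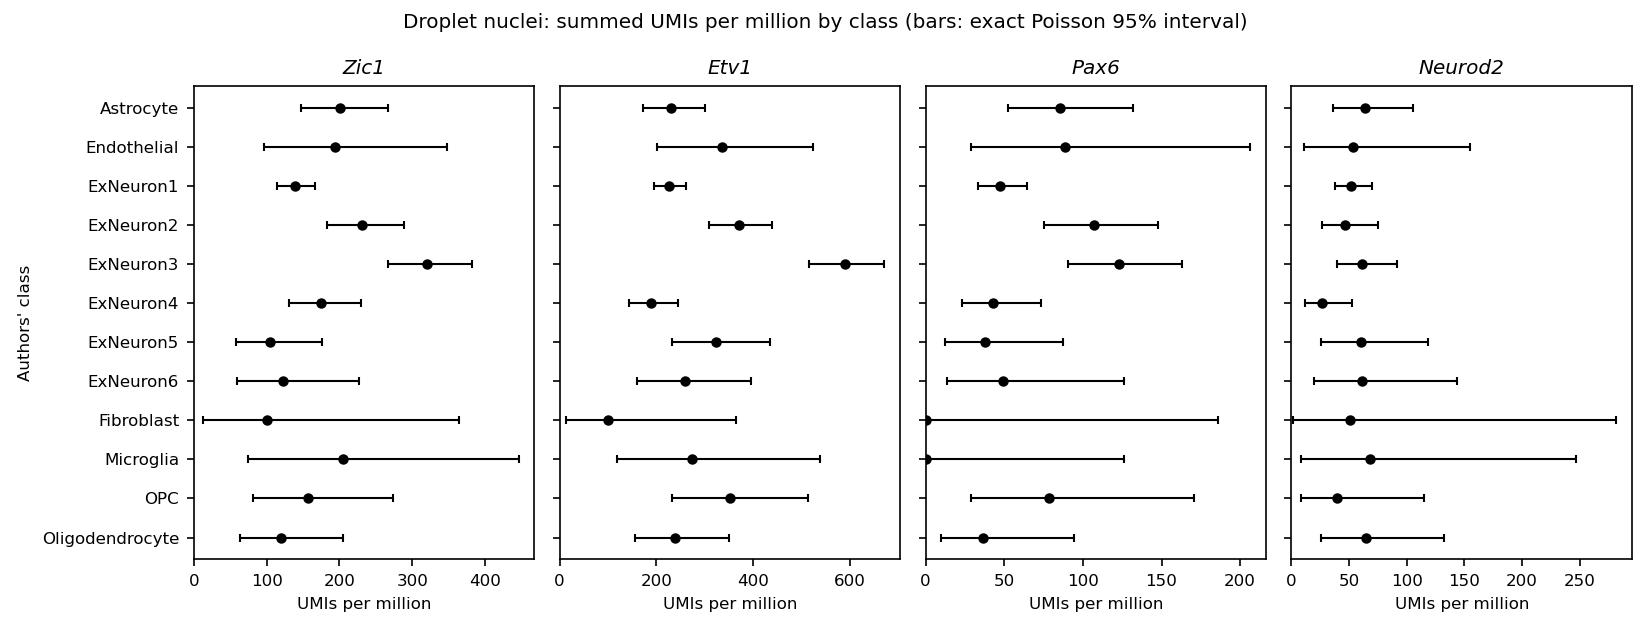
UMIs per 1000000 UMIs of Zic1, Etv1, Pax6 and Neurod2 by the authors' droplet class, with exact Poisson 95% intervals. Etv1 and Zic1 stand highest in ExNeuron3 (590.1 and 321).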

How the data were processed

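The deposited tables hold raw counts per gene, made by the authors from SCRB-seq wells, SMART-Seq2 wells, plate nuclei and droplet nuclei (UMI counts). Column sums equal the totals of the authors' annotation in all bulk wells, in all 280 wells of the whole-series plate table and in 6900 of 7031 droplet nuclei. Builds hg19 and mm10 are named per the submitters' processing notes. No source used here names the aligner or counter, or says if UMIs were collapsed in SCRB-seq. Its 10653 human gene rows were left out. The batch 3 plate table holds 0 nuclei, and 134 of 143 FFPE wells of the whole-series table equal batch 2.

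Levels are CPM. Bulk contrasts were fitted on counts with edgeR 4.0.16 in R 4.3.3 (TMM, filterByExpr by group, quasi-likelihood test, adjusted p under 0.05 over all genes), tested on simulated data. DESeq2 1.42.0 was an alternative. Nuclei were not tested, since cells are not replicates. Shares carry exact binomial and sums exact Poisson 95% intervals, which cover counting error only. Profile likeness used log2(CPM + 10). Named genes were all members, up to 4 called genes per fixed list and the 3 droplet genes most like each of the 3 members with most UMIs. A few counts of 0 were named after their values were seen. Members and lists were chosen with earlier results of these data known, and 1 member and 2 list genes are not reported here and enter no list value. Python 3.11.15, numpy 2.4.6, pandas 2.3.3, scipy 1.17.1 and matplotlib 3.10.9 were used.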

Additional observations from a re-analysis of the deposited data

Results flagged for a closer look

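Of 42 groups of wells in which at least 4 wells held a factor, 13 had a well whose gap to its nearest neighbour was large for the range of the group. The limits used would flag about 1 group in 20 if values were normally distributed. Wells with few counts spread widely and are not so distributed, so the 13 cannot be judged against that rate. In heated xylene wells of 100 nuclei, Zic4 reached 217 CPM in 1 well (nearest 53.9), En2 287 (nearest 75.5) and Barhl2 319 (nearest 63.4). In heated xylene wells of 10 nuclei, Zic1 reached 1043 CPM (nearest 435) and Zic4 134 (nearest 37.5). In mineral oil wells of 10 nuclei, En2 and Etv1 each reached 994 CPM in a single well (nearest 95.8 and 122). In mineral oil wells of 100 nuclei, Pax6 reached 324 CPM (nearest 155) and Neurod2 482 (nearest 231). In room-temperature xylene wells of 10 nuclei, Neurod2 reached 152 CPM (nearest 62.4). Among the 9 SMART-Seq2 FFPE wells, En2 reached 108 CPM (nearest 14.4), Pax6 234 (nearest 117) and Etv1 1173 (nearest 542).

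The difference of Zic1 between methods was not the same at both nuclei numbers. Mineral oil minus heated xylene was larger in wells of 100 than of 10 nuclei by 4.26 on the log2 scale (edgeR interaction, adjusted p = 2.52e-05), and mineral oil minus room-temperature xylene by 3.27 (adjusted p = 0.00102). These tests were added after seeing the data, and 309 and 320 of 1080 genes passed them. Each nuclei number is a library pool of its own, so number and pool cannot be told apart.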

How the results depend on the processing

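Of 145 recomputed counts of called or higher factors, 111 stayed within 1.5 times the value reported. For FFPE, mineral oil, heated xylene and room-temperature xylene minus frozen in SCRB-seq, 2 factors were called, against 6, 5, 7 and 7 with genes of at least 10 counts or with no filter, and 0 in all 4 with counts summed by pool. In wells of 100 nuclei mineral oil minus frozen gave 4. Between methods the count of 0 became 2 for mineral oil minus heated xylene and 3 for heated minus room-temperature xylene with either looser filter, and 1 for both mineral oil contrasts in wells of 100 nuclei. In wells of 10 nuclei alone no factor passed the filter, so no value is given. Zic1 in mineral oil minus heated xylene was -0.10, and 0.06 with DESeq2 size factors, 0.07 with DESeq2 and 1.02 in wells of 100 nuclei; the cause was not tested. In SMART-Seq2 mineral oil minus frozen gave 4 with DESeq2 (2 by edgeR), where DESeq2 called 590 of 9092 genes and edgeR 229, and heated xylene minus frozen gave 1 with nuclei number as a covariate (2 without). Leaving out 1 well at a time gave 1 to 3 called factors for FFPE and for room-temperature xylene minus frozen, and 1 to 2 for mineral oil and for heated xylene; each fell to 1 without the frozen well of 100 or of 50 nuclei. Over all genes, FFPE minus frozen called 857 in SCRB-seq, against 4637 with genes of at least 10 counts and 77 with counts summed by pool, and 372 in SMART-Seq2, against 630 with DESeq2. No paired analysis was possible because the labels give each bulk chemistry as 1 sample and the groups compared share fewer than 2 replicate numbers. Wells share nuclei numbers, and with that number as a covariate FFPE minus frozen called 882 genes in SCRB-seq and 429 in SMART-Seq2, with the same count of factors as without it (2 and 3). Depth limits the rarer factors most: a count of 0 over all frozen SCRB-seq wells allows up to 2.82 CPM (3 counts).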

Other observations

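Further genes differed between FFPE and frozen SCRB-seq wells. Of 9 Purkinje and unipolar brush genes 3 were tested and all 3 were lower in FFPE wells, where 27.7% of all tested genes were called lower: Itpr1, a calcium channel abundant in Purkinje cells, by -2.77 (edgeR adjusted p = 2.98e-09), Lmx1a by -2.65 (adjusted p = 2.81e-19) and Rora by -0.94 (adjusted p = 0.00048). Of the genes of that list too low to be tested, Ppp1r17 had 7.73 CPM in FFPE and 0.939 in frozen wells and Eomes 14.1 and 0.939, while Calb1 had 19.1 and 96.7; all 3 were picked after their values were seen. In SMART-Seq2 the list's summed level was 2635 CPM in FFPE and 2559 in frozen wells, and 1 of its 3 tested genes was called lower, Itpr1 (-2.56, edgeR adjusted p = 0.0117). Rora had 2500 CPM in FFPE and 1977 in frozen SMART-Seq2 wells (adjusted p = 0.964), and Lmx1a 2.83 and 1.23. Slc1a3, an astrocyte glutamate transporter, was higher by 2.57 (adjusted p = 4.92e-06), and the endothelial receptor Tek by 2.99 (adjusted p = 4.26e-12). Tek was the 1 endothelial gene tested in SCRB-seq, where Cldn5 had 0.672 CPM in FFPE and 9.39 in frozen wells and Pecam1 92.4 and 82.6. In SMART-Seq2 Tek had a difference of -0.72 (adjusted p = 0.891). In mineral oil, Gad1 was lower than in heated xylene (-2.78, adjusted p = 5.33e-07) and than in room-temperature xylene (-3.07, adjusted p = 6.47e-08). The myelin gene Mbp was lower there than in heated xylene too, by -1.93 (adjusted p = 0.00329). Grin2c, an NMDA receptor subunit of mature granule neurons, was higher in mineral oil than in heated xylene by 1.76 (adjusted p = 0.04). These values come from wells that share library pools.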
